A study of Mus musculus with 12 samples.

Results

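Ribosome biogenesis genes encode the RNA polymerase I machinery and the nucleolar proteins that turn its transcript into ribosomal subunits. A set of 40 such genes was taken by gene name from mouse expression arrays carrying 31541 gene names, with the brightest probe on average representing each gene. All 40 were found, all 40 were among the 18556 genes bright enough to be tested, and each was well above background on all 12 arrays. RNA came from marrow subsets of female C57BL/6 mice, 16 weeks old, that carry a human CD4 (hCD4) reporter driven by Cebpa enhancer and promoter sequence, and the series title names 2 mice. The 6 groups are hCD4+ granulocyte-monocyte progenitors (GMP), pre-pro-B cells and pro-B cells, each sorted as hCD4- and as hCD4+, and pre-B cells whose hCD4 state the labels do not give. Each group has 2 arrays. All groups carry the transgene, and hCD4 reports activity of the Cebpa sequence in that construct rather than of Cebpa itself. Which animal gave which replicate is not stated in the labels, so p-values measure only the spread between these samples, which may be technical.

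In the nucleolus, RNA polymerase I copies ribosomal DNA into a long precursor. Small nucleolar ribonucleoproteins (snoRNPs) then mark that precursor for methylation (box C/D) or pseudouridylation (box H/ACA). Separate sets of assembly factors cut it, fold it and build the small and the large subunit around it. Production of ribosomes is costly and is known to track cell growth, and Myc is the best known transcription factor that drives its genes. In marrow, GMP are fast-growing myeloid progenitors. B cell development passes from pre-pro-B through dividing pro-B cells to pre-B cells, which at first divide and then rest.

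Promoter sequence is shown for 3 members whose GMP and pro-B arrays all lay above their other arrays, because the E-box CACGTG, bound by Myc and its partner proteins, is often linked to this gene class. Promoters (250 bases before the annotated start, RefSeq, GRCm38.p6) were matched for 34 of the 40 members. CACGTG, which reads the same on both strands, stood in the promoter of 1 of 34 members (2.94%), Nop2, against 6.86% of 27025 genes in the same window. The Ets-type letters CCGGAAG, searched on both strands, stood in 8 of 34 (23.5%) against 7.83% of those genes. The 8 were Gar1, Heatr1, Nhp2, Nip7, Nolc1, Nop2, Polr1c and Wdr74. The 2 motifs do not share bases in Nop2. A match describes letters in a window and not a bound site, and these motifs were picked for display, so no test was made. The sequences run 5′ to 3′ towards the start, with capitals marking motif matches. They are Nop2 (chr6:125131633-125131882, plus strand; the E-box begins 60 and the Ets-type match 38 bases before the start), Gar1 (chr3:129831397-129831646, minus strand; 1 Ets-type match, 43 bases before the start, as its complement) and Polr1b (chr2:129100746-129100995, plus strand; neither motif).
Nop2: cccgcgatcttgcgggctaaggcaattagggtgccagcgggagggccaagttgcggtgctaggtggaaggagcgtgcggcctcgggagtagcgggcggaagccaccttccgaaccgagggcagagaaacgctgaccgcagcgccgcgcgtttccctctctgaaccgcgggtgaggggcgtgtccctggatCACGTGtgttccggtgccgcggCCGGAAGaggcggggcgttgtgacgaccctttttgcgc
Gar1: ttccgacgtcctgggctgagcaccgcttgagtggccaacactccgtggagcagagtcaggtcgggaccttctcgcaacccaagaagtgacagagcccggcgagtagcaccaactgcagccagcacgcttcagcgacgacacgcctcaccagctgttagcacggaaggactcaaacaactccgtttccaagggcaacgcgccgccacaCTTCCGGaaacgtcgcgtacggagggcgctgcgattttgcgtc
Polr1b: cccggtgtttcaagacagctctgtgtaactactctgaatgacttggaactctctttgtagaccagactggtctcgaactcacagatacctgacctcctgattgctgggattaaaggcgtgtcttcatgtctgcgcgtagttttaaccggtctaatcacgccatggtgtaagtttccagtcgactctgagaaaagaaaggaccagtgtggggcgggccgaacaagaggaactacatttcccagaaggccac

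Levels are log2 signals relative to the 75th percentile of the same array, so a level of 0 is that percentile's brightness, and they compare one gene across groups but not different genes with each other. The 75th percentile of the raw signal ran from 435 to 946 in 5 groups and was lowest on the hCD4- pre-pro-B arrays (246 and 358), where replicates also differed most (median SD 0.221 against 0.0977 to 0.152 elsewhere). The number of arrays limits the precision throughout. Ebf1 and Pax5, transcription factors of the committed B lineage, were above background on both arrays in the pro-B and pre-B groups and on neither array of either pre-pro-B group. Of 7 markers of that lineage, all 7 were above background on both arrays in each pro-B group and in pre-B cells. In hCD4- and hCD4+ pre-pro-B cells 2 and 3 of the 7 were. Their summed level was 7.77 to 8.75 in pro-B and pre-B cells and -0.407 to 0.316 in pre-pro-B cells. The pre-pro-B arrays had the highest summed signal of classical dendritic cell markers (log2 level 6.25 to 6.27 against -3.82 to 2.31 elsewhere, 4 of 4 markers above background). Their plasmacytoid dendritic cell markers were highest too (8.16 to 8.79 against 6.39 to 7.12, 5 of 5 above background). In hCD4+ pro-B cells all markers of both lists were above background as well. The summed signal of the 7 GMP and granule markers was 9.87 to 10.2 in GMP, 6.99 to 7.13 in hCD4+ pro-B and 3.79 to 5.08 in hCD4+ pre-pro-B against 0.334 to 1.83 in the other 3 groups. All 7 were above background on both arrays in GMP and hCD4+ pro-B. In bulk RNA, fewer cells of a type and less RNA per cell cannot be told apart. The arrays lay on 3 slides. The first held GMP with hCD4- pre-pro-B cells, the second hCD4+ pre-pro-B with hCD4- pro-B cells, and the third hCD4+ pro-B with pre-B cells. Comparisons within these pairs share a slide, and in all others slide and group cannot be told apart.

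Most of the 40 genes were high in GMP and pro-B cells and low in pre-pro-B and pre-B cells. The median level of the 40 was 2.89 and 2.91 on the GMP arrays, 2.48 and 2.60 on the hCD4+ pro-B arrays and 2.05 and 2.18 on the hCD4- pro-B arrays. It was 1.25 and 1.36 on the hCD4+ pre-pro-B arrays, 1.33 and 1.18 on the hCD4- pre-pro-B arrays and 1.18 and 1.11 on the pre-B arrays. By limma's F test, 39 of 40 differed among the 6 groups, at a background of 82.8% of all genes tested, and Ubtf did not. GMP had the highest mean for 33 members, hCD4+ pro-B for 6 and pre-B for 1. The lowest mean was in hCD4- pre-pro-B for 24, pre-B for 13, hCD4+ pre-pro-B for 2 and hCD4- pro-B for 1. All 4 pro-B arrays lay above all 4 pre-pro-B arrays for 33 members (29.6% of all genes) and also above both pre-B arrays for 32 (17%). For those 32 members, both GMP and all 4 pro-B arrays lay above all 6 pre-pro-B and pre-B arrays (13.4% of all genes do). The other 8 were Nob1, Npm3, Pes1, Polr1e, Rrp12, Rrp9, Tcof1 and Ubtf. Both GMP arrays lay above all 10 others for 24 members (18.7% of all genes). Range of group means ran from 0.78 for Pes1 to 3.65 for Wdr12 on the log2 scale.

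**Figure D1:**
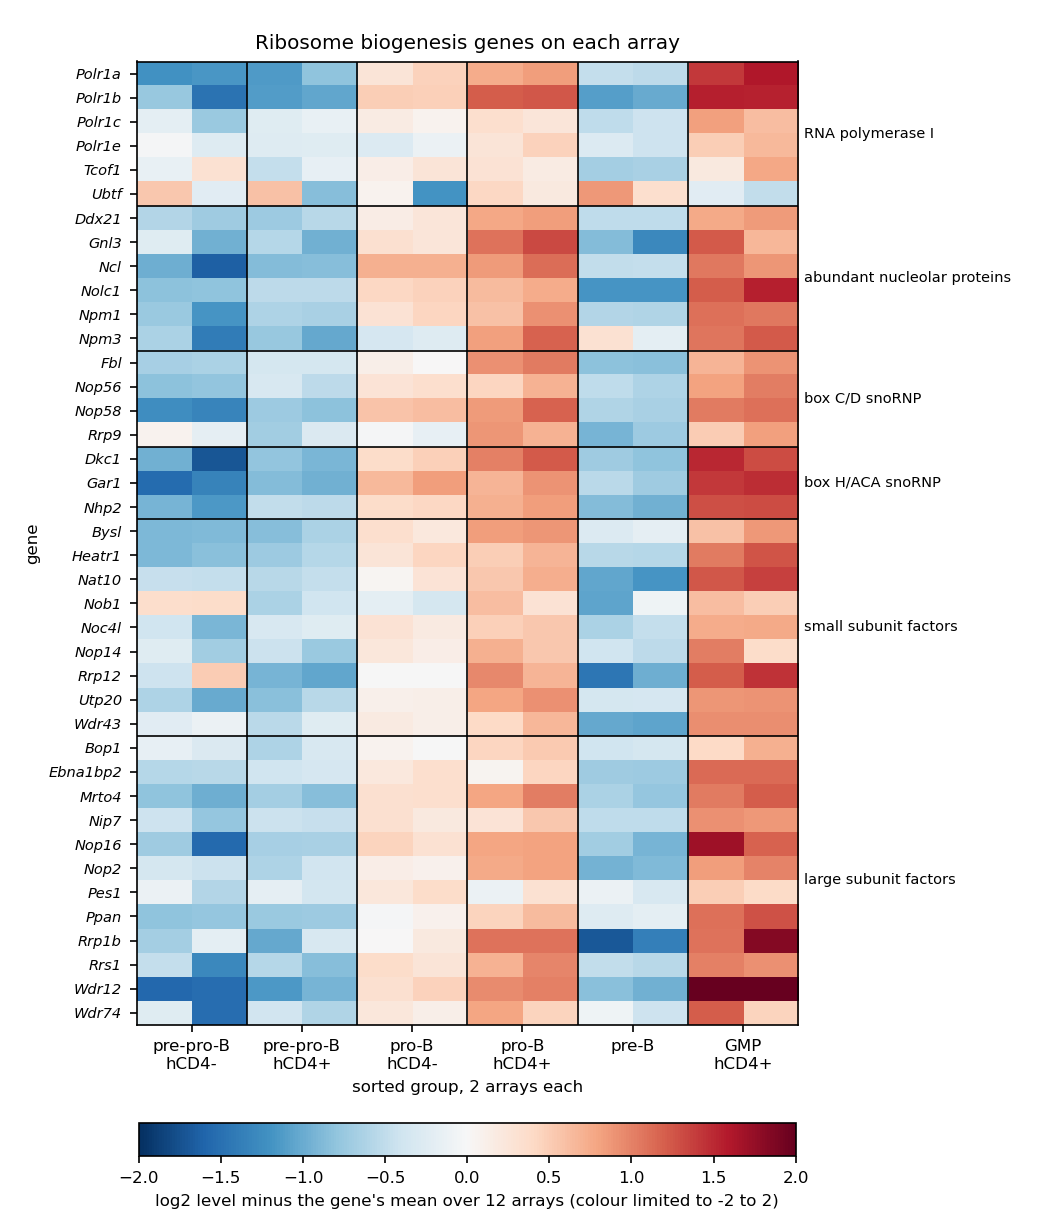
Colour shows the log2 level of each of the 40 genes (rows, grouped by role) on each of 12 arrays (columns, 2 per sorted group) minus the gene's mean over all arrays, limited to -2 to 2. For 32 genes the GMP and pro-B columns all lie above the pre-pro-B and pre-B columns.

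Among 6 genes of RNA polymerase I transcription, the 2 largest subunits varied most. Polr1a, the largest subunit, lay at 2.83 and 3.01 on the GMP arrays, 2.16 and 2.25 on the hCD4+ pro-B arrays and 1.67 and 1.88 on the hCD4- pro-B arrays. It was at 0.93 and 0.90 on the pre-B arrays, 0.28 and 0.60 on the hCD4+ pre-pro-B arrays and 0.20 and 0.25 on the hCD4- pre-pro-B arrays. All GMP and pro-B arrays were above all others, and GMP was highest. Polr1b, the second largest subunit, read 0.97 and 0.96 on the GMP arrays, 0.63 and 0.66 on the hCD4+ pro-B arrays and -0.092 and -0.11 on the hCD4- pro-B arrays, against -1.68 and -1.59 on the pre-B arrays, -1.70 and -1.61 on the hCD4+ pre-pro-B arrays and -1.33 and -2.05 on the hCD4- pre-pro-B arrays. The 3 low groups overlapped, and the hCD4- pre-pro-B arrays lay furthest apart. Polr1e, which encodes the smaller polymerase I subunit PAF53, was at 0.96 and 1.11 on the GMP arrays, 0.72 and 0.92 on the hCD4+ pro-B arrays and 0.19 and 0.35 on the hCD4- pro-B arrays, and at 0.19 and 0.041 on the pre-B arrays, 0.20 and 0.22 on the hCD4+ pre-pro-B arrays and 0.43 and 0.20 on the hCD4- pre-pro-B arrays. On this probe GMP and hCD4+ pro-B stood above the rest, hCD4- pro-B overlapped both pre-pro-B groups, and pre-B lay just below those. On its other probe hCD4- pro-B cells were higher than hCD4- and hCD4+ pre-pro-B cells by 0.33 and 0.36. On that probe hCD4+ pro-B cells were higher than hCD4- pro-B cells by 0.11. Polr1c, a subunit shared with RNA polymerase III, ranged over 1.19 between group means and Tcof1, the treacle nucleolar scaffold, over 1.15.

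Ubtf, the upstream binding factor that holds ribosomal DNA open, was the member that did not pass the F test (adjusted p = 0.37, limma). Its levels were 5.41 and 5.14 on the GMP arrays, 6.05 and 5.83 on the hCD4+ pro-B arrays and 5.71 and 4.44 on the hCD4- pro-B arrays, then 6.50 and 5.98 on the pre-B arrays, 6.22 and 4.79 on the hCD4+ pre-pro-B arrays and 6.18 and 5.41 on the hCD4- pre-pro-B arrays. The arrays of one group lay far apart, and most groups overlapped. The SD reached 1.01 in hCD4+ pre-pro-B, and the range of group means, 1.16, was of the size of this spread. Changes of its second probe ran from -0.75 to 0.53 over 9 comparisons.

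All 6 abundant nucleolar proteins differed among groups. Nolc1, a chaperone of snoRNPs, measured 4.16 and 4.51 on the GMP arrays, 3.58 and 3.69 on the hCD4+ pro-B arrays and 3.36 and 3.42 on the hCD4- pro-B arrays, and 1.78 and 1.78 on the pre-B arrays, 2.42 and 2.43 on the hCD4+ pre-pro-B arrays and 2.13 and 2.14 on the hCD4- pre-pro-B arrays. Pre-B cells were lowest for it on the probe used, below both pre-pro-B groups. Its other probe changed by 2.02 from hCD4- pre-pro-B to hCD4- pro-B cells and by -1.06 from there into pre-B cells. On that probe pre-B cells were therefore not lowest. Ncl, nucleolin, which binds the nascent precursor, lay at 5.78 and 5.61 on the GMP arrays, 5.58 and 5.84 on the hCD4+ pro-B arrays and 5.44 and 5.45 on the hCD4- pro-B arrays. Its other arrays read 4.24 and 4.25 on the pre-B arrays, 3.87 and 3.87 on the hCD4+ pre-pro-B arrays and 3.75 and 3.1 on the hCD4- pre-pro-B arrays. The hCD4+ pro-B arrays overlapped the GMP arrays for Ncl, and the hCD4- pro-B arrays lay just below them. Ddx21, an RNA helicase of the nucleolus, varied least of this group, with 2.70 and 2.79 on the GMP arrays, 2.72 and 2.77 on the hCD4+ pro-B arrays and 2.10 and 2.19 on the hCD4- pro-B arrays, against 1.44 and 1.43 on the pre-B arrays, 1.22 and 1.40 on the hCD4+ pre-pro-B arrays and 1.36 and 1.24 on the hCD4- pre-pro-B arrays. Its hCD4+ pro-B arrays overlapped the GMP arrays. Npm1 (nucleophosmin) had a range of group means of 2.05, Gnl3 (nucleostemin) of 2.28 and Npm3, a relative of Npm1, of 2.17. Npm3 departed from the others in pre-B cells, at a mean of -0.63 ± 0.36 (SD, n = 2), above the hCD4- pro-B mean of -0.98 ± 0.059, a difference of 0.36 that did not pass the test.

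The box C/D proteins belong to the snoRNP class that directs methylation of ribosomal RNA. Nop58, a core subunit, lay at 4.32 and 4.38 on the GMP arrays, 4.13 and 4.47 on the hCD4+ pro-B arrays and 3.84 and 3.90 on the hCD4- pro-B arrays, and at 2.68 and 2.63 on the pre-B arrays, 2.55 and 2.46 on the hCD4+ pre-pro-B arrays and 2.03 and 1.96 on the hCD4- pre-pro-B arrays. The hCD4- pre-pro-B arrays were lowest and the 6 GMP and pro-B arrays were all at least 1 log2 unit above the rest. Fbl, fibrillarin, the methyltransferase itself, read 4.51 and 4.73 on the GMP arrays, 4.75 and 4.87 on the hCD4+ pro-B arrays and 3.96 and 3.84 on the hCD4- pro-B arrays, against 3.02 and 2.99 on the pre-B arrays, 3.47 and 3.48 on the hCD4+ pre-pro-B arrays and 3.18 and 3.20 on the hCD4- pre-pro-B arrays. Both hCD4+ pro-B arrays were above both GMP arrays, and pre-B cells were lowest of all groups. Rrp9, which binds the U3 snoRNA, showed 0.99 and 1.30 on the GMP arrays, 1.36 and 1.18 on the hCD4+ pro-B arrays and 0.46 and 0.31 on the hCD4- pro-B arrays, and -0.46 and -0.25 on the pre-B arrays, -0.22 and 0.19 on the hCD4+ pre-pro-B arrays and 0.55 and 0.30 on the hCD4- pre-pro-B arrays. Within hCD4- cells, the arrays of both stages overlapped for Rrp9. Nop56, the partner of Nop58, ranged over 1.72.

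The 3 box H/ACA proteins, which also belong to telomerase, all had ranges of group means over 2 log2 units. Gar1 was at 4.89 and 4.95 on the GMP arrays, 4.15 and 4.38 on the hCD4+ pro-B arrays and 4.13 and 4.31 on the hCD4- pro-B arrays, and at 2.94 and 2.77 on the pre-B arrays, 2.61 and 2.52 on the hCD4+ pre-pro-B arrays and 1.94 and 2.15 on the hCD4- pre-pro-B arrays. Its 2 pro-B groups overlapped. Dkc1, dyskerin, the pseudouridine synthase, lay at 1.29 and 1.08 on the GMP arrays, 0.79 and 1.01 on the hCD4+ pro-B arrays and 0.14 and 0.26 on the hCD4- pro-B arrays. Low arrays of Dkc1 read -0.93 and -1.02 on the pre-B arrays, -1.0 and -1.14 on the hCD4+ pre-pro-B arrays and -1.17 and -1.93 on the hCD4- pre-pro-B arrays. Nhp2 gave 6.21 and 6.23 on the GMP arrays, 5.64 and 5.76 on the hCD4+ pro-B arrays and 5.30 and 5.34 on the hCD4- pro-B arrays, against 4.06 and 3.96 on the pre-B arrays, 4.43 and 4.40 on the hCD4+ pre-pro-B arrays and 4.0 and 3.78 on the hCD4- pre-pro-B arrays. For Nhp2, the arrays of GMP, then hCD4+ and hCD4- pro-B, then hCD4+ pre-pro-B cells followed each other without overlap, and pre-B overlapped hCD4- pre-pro-B.

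All 9 small subunit factors differed among groups by the F test, with unlike orders of groups. Rrp12, an export factor of pre-ribosomes, varied most, with -1.58 and -1.34 on the GMP arrays, -1.82 and -2.10 on the hCD4+ pro-B arrays and -2.79 and -2.79 on the hCD4- pro-B arrays, and -4.22 and -3.76 on the pre-B arrays, -3.72 and -3.83 on the hCD4+ pre-pro-B arrays and -3.20 and -2.28 on the hCD4- pre-pro-B arrays. Its hCD4- pre-pro-B arrays (SD 0.65) spanned the hCD4- pro-B arrays. Nat10, the acetyltransferase of small subunit RNA, read 3.19 and 3.33 on the GMP arrays, 2.49 and 2.68 on the hCD4+ pro-B arrays and 2.00 and 2.24 on the hCD4- pro-B arrays, against 0.93 and 0.77 on the pre-B arrays, 1.40 and 1.48 on the hCD4+ pre-pro-B arrays and 1.5 and 1.49 on the hCD4- pre-pro-B arrays. Nat10 was lowest in pre-B cells. Nob1, the nuclease that makes the last cut of small subunit RNA, varied least, with -1.06 and -1.19 on the GMP arrays, -1.07 and -1.38 on the hCD4+ pro-B arrays and -1.88 and -2.03 on the hCD4- pro-B arrays, then -2.73 and -1.77 on the pre-B arrays, -2.31 and -2.08 on the hCD4+ pre-pro-B arrays and -1.32 and -1.32 on the hCD4- pre-pro-B arrays. For Nob1 the hCD4- pre-pro-B arrays lay above both hCD4- pro-B arrays. Of the others, Heatr1, Utp20, Wdr43, Nop14 and Noc4l belong to the early small subunit processome and Bysl acts later. Their ranges lay between 1.28 for Nop14 and 2.02 for Heatr1. On the probe used Wdr43 was lowest in pre-B cells, at 0.79 ± 0.019 (SD, n = 2) against 1.44 ± 0.21 and 1.65 ± 0.075 in the pre-pro-B groups. Its other probe changed by 1.22 from hCD4- pre-pro-B to hCD4- pro-B cells and by -1.24 from there into pre-B cells. On that probe pre-B and hCD4- pre-pro-B cells lay close together.

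Among 12 large subunit factors, Wdr12 varied most of all 40 genes. With Pes1 and Bop1 it forms the PeBoW complex, needed to process large subunit RNA. Wdr12 lay at 3.61 and 3.64 on the GMP arrays, 2.46 and 2.52 on the hCD4+ pro-B arrays and 1.84 and 1.98 on the hCD4- pro-B arrays, and at 0.68 and 0.55 on the pre-B arrays, 0.37 and 0.58 on the hCD4+ pre-pro-B arrays and -0.050 and -0.0037 on the hCD4- pre-pro-B arrays. No 2 groups overlapped for Wdr12 apart from pre-B and hCD4+ pre-pro-B. Pes1, its partner, varied least of all 40 on the probe used, with 0.76 and 0.64 on the GMP arrays, 0.14 and 0.57 on the hCD4+ pro-B arrays and 0.50 and 0.64 on the hCD4- pro-B arrays, against 0.15 and -0.059 on the pre-B arrays, 0.093 and -0.097 on the hCD4+ pre-pro-B arrays and 0.15 and -0.31 on the hCD4- pre-pro-B arrays. Both GMP arrays of Pes1 lay only just above the hCD4- pro-B arrays, and its hCD4+ pro-B arrays overlapped those of hCD4- pro-B and pre-B. The other Pes1 probe differed more, with GMP above hCD4+ and hCD4- pre-pro-B cells by 1.96 and 1.85, against 0.70 and 0.78 on the probe used. Bop1 ranged over 1.02. Rrp1b, a nucleolar adaptor protein, measured 0.14 and 0.89 on the GMP arrays, 0.14 and 0.14 on the hCD4+ pro-B arrays and -0.94 and -0.75 on the hCD4- pro-B arrays, and -2.65 and -2.31 on the pre-B arrays, -1.97 and -1.27 on the hCD4+ pre-pro-B arrays and -1.62 and -1.14 on the hCD4- pre-pro-B arrays. Pre-B arrays were lowest for Rrp1b, and the SD over 2 arrays reached 0.53, in GMP. Nop16 had the next widest range, 2.57. Mrto4 and Ppan, Ebna1bp2, Rrs1, Nop2 (an RNA methyltransferase), Wdr74 and Nip7 ranged between 1.48 for Nip7 and 2.02 for Mrto4.

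**Figure D2:**
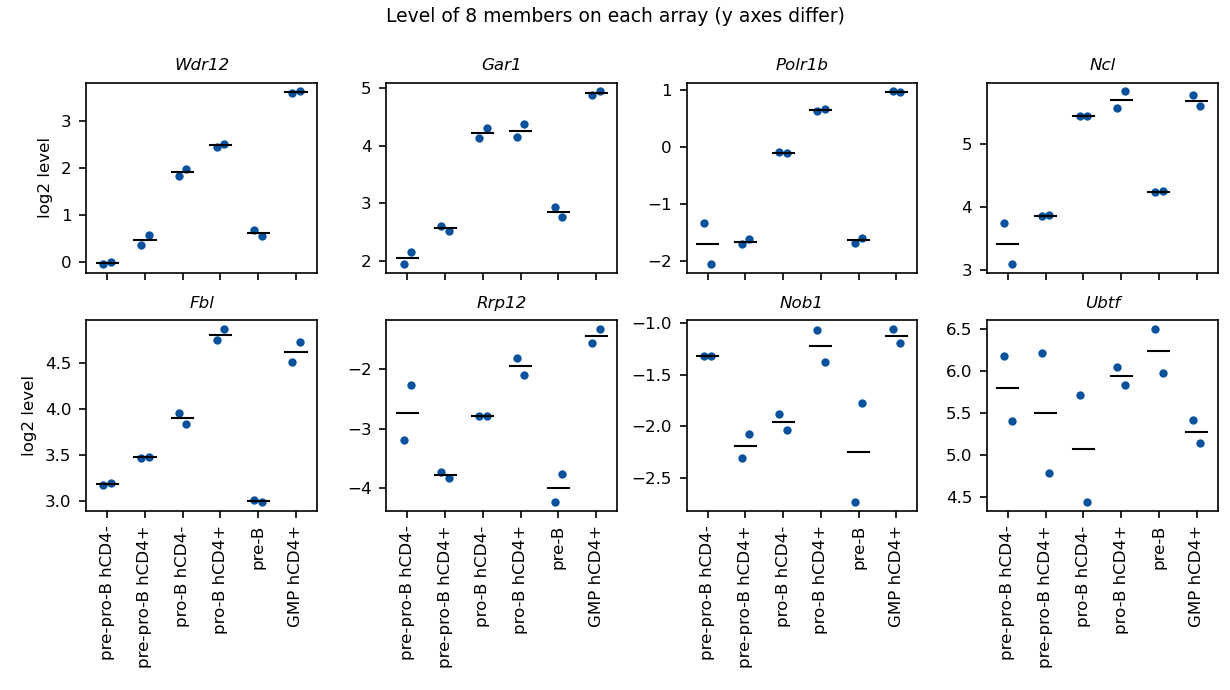
Each panel plots the log2 level of one gene on the 12 arrays (points) and the group mean (bar), with groups on the horizontal axis and a vertical axis of its own. Wdr12, Gar1, Polr1b and Ncl are low in pre-pro-B and pre-B cells, Fbl is highest in hCD4+ pro-B cells, hCD4- pre-pro-B arrays of Rrp12 and Nob1 are not low, and Ubtf replicates lie far apart (SD up to 1.01).

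The step from pre-pro-B to pro-B cells was a broad rise. In hCD4- cells 30 of 40 members rose and none fell, while 32.7% of all genes rose and 26.9% fell, and the median change was 0.87 against 0.024 for all genes. All 6 nucleolar proteins and all 3 box H/ACA proteins rose, as did 3 of 4 box C/D proteins, 9 of 12 large subunit factors, 6 of 9 small subunit factors and 3 of 6 polymerase I genes. Gar1 rose most, by 2.18 (SE 0.14, adjusted p = 3.12e-06, limma, as are all further adjusted p), which is 4.52-fold. Ncl rose by 2.02 (SE 0.20, adjusted p = 4.9e-05), Wdr12 by 1.94 (SE 0.12, adjusted p = 2.54e-06) and Nop58 by 1.87 (SE 0.13, adjusted p = 5.52e-06). The 10 that did not pass were Bop1, Nob1, Polr1e, Rrp12, Rrp1b, Rrp9, Tcof1, Ubtf, Wdr43 and Wdr74. The other probe of Wdr43 changed by 1.22, against 0.33 on the probe used. Other probes of Polr1e, Tcof1 and Ubtf changed by 0.33, 0.19 and -0.75.

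In hCD4+ cells 37 of 40 rose and none fell (33.1% and 21.1% of all genes), with a median change of 1.28 against 0.25. Scaled by array medians, 30 rose and none fell (18.9% and 29.3% of all genes). Pes1, Tcof1 and Ubtf were the exceptions, at 0.36 (SE 0.20), 0.55 (SE 0.22) and 0.44 (SE 0.54). Polr1b rose most, by 2.30 (SE 0.20, adjusted p = 4.31e-05), followed by Wdr12 at 2.02 (SE 0.12, adjusted p = 5.2e-06), Dkc1 at 1.97 (SE 0.23, adjusted p = 0.000177) and Gnl3 at 1.96 (SE 0.29, adjusted p = 0.000707). On the slide with hCD4- pro-B and hCD4+ pre-pro-B cells 31 rose and none fell (29.2% and 18.6% of all genes), with Gar1 again first at 1.66 (SE 0.14, adjusted p = 2.39e-05), then Ncl at 1.57 (SE 0.20, adjusted p = 0.000308), Polr1b at 1.56 (SE 0.20, adjusted p = 0.000339) and Wdr12 at 1.44 (SE 0.12, adjusted p = 2.22e-05). Dendritic cell markers, higher in both pre-pro-B groups as given above, moved with these comparisons. So did mature neutrophil markers in the steps into hCD4- pro-B cells (summed level 3.78 to 4.63, 5 of 5 above background, against -0.484 to 1.41 in hCD4- and -2.02 to -1.91 in hCD4+ pre-pro-B cells, where Ltf and Ngp were not), and granule markers in the hCD4+ step (6.99 to 7.13 against 3.79 to 5.08). The part of these markers was not tested.

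From pro-B to pre-B cells most members fell. Against hCD4- pro-B cells 31 of 40 fell and none rose (21.4% and 19.7% of all genes), with a median change of -0.88 against 0.026. Rrp1b fell by 1.63 (SE 0.31, adjusted p = 0.00417), Nolc1 by 1.61 (SE 0.13, adjusted p = 7.27e-05), Polr1b by 1.53 (SE 0.20, adjusted p = 0.000797) and Gar1 by 1.37 (SE 0.14, adjusted p = 0.000203). All 4 box C/D and all 3 box H/ACA proteins fell. Against hCD4+ pro-B cells, which shared a slide with pre-B, 37 of 40 fell and none rose (24% and 18.8% of all genes), with a median change of -1.33. The largest falls were Rrp1b at -2.62 (SE 0.31, adjusted p = 0.000286), Gnl3 at -2.28 (SE 0.29, adjusted p = 0.000426), Polr1b at -2.28 (SE 0.20, adjusted p = 6.46e-05) and Rrp12 at -2.03 (SE 0.29, adjusted p = 0.000734). Pes1, Ubtf and Wdr74 did not pass. The granule marker signal, higher in hCD4+ pro-B, moved with the second of these comparisons, while in the first it was 0.334 to 0.935 against 0.897 to 1.43 in pre-B. Classical dendritic cell markers moved with the second too, at 2.08 to 2.31 in hCD4+ pro-B against -3.82 to -1.47 in pre-B cells. Mature neutrophil markers moved with the first, at 3.78 to 4.63 in hCD4- pro-B cells against -1.21 to -0.56 in pre-B cells, where S100a8, Ltf and Ngp were not above background. The part of these markers was not tested. Both pre-B arrays lay below all 4 pre-pro-B arrays for 10 members, a share equal to the background (25% of all genes). They were Ebna1bp2, Fbl, Nat10, Nolc1, Nop2, Polr1e, Rrp1b, Rrp9, Tcof1 and Wdr43. For Nolc1 and Ebna1bp2 another probe changed by 2.02 and 0.47 from hCD4- pre-pro-B to hCD4- pro-B cells. From there into pre-B cells those probes changed by -1.06 and -0.14, which leaves pre-B cells above hCD4- pre-pro-B cells.

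GMP stood above pre-pro-B cells for nearly the whole set. Against hCD4+ pre-pro-B cells 39 of 40 were higher and none lower (31.3% and 22.8% of all genes), at a median of 1.63 against 0.10. Ubtf was the exception. Wdr12 differed most, by 3.15 (SE 0.12, adjusted p = 2.74e-07), an 8.87-fold difference, followed by Polr1b at 2.62 (SE 0.20, adjusted p = 1.43e-05), Polr1a at 2.48 (SE 0.14, adjusted p = 2.73e-06) and Gar1 at 2.36 (SE 0.14, adjusted p = 2.83e-06). On the slide shared with hCD4- pre-pro-B cells 37 were higher and none lower (34.7% and 30.8% of all genes), at a median of 1.70, and Nob1, Tcof1 and Ubtf did not pass. Wdr12 led with 3.65 (SE 0.12, adjusted p = 9.62e-08), then Gar1 with 2.88 (SE 0.14, adjusted p = 6.09e-07), Dkc1 with 2.74 (SE 0.23, adjusted p = 1.33e-05) and Polr1a with 2.69 (SE 0.14, adjusted p = 1.07e-06). Marker lists moved with both comparisons. Granule markers were at 9.87 to 10.2 in GMP against 1.08 to 5.08 in pre-pro-B cells. Classical dendritic cell markers were at 0.725 to 0.787 against 6.25 to 6.27, and plasmacytoid ones at 6.39 to 6.42 against 8.16 to 8.79. The part of these markers was not tested.

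**Figure D3:**
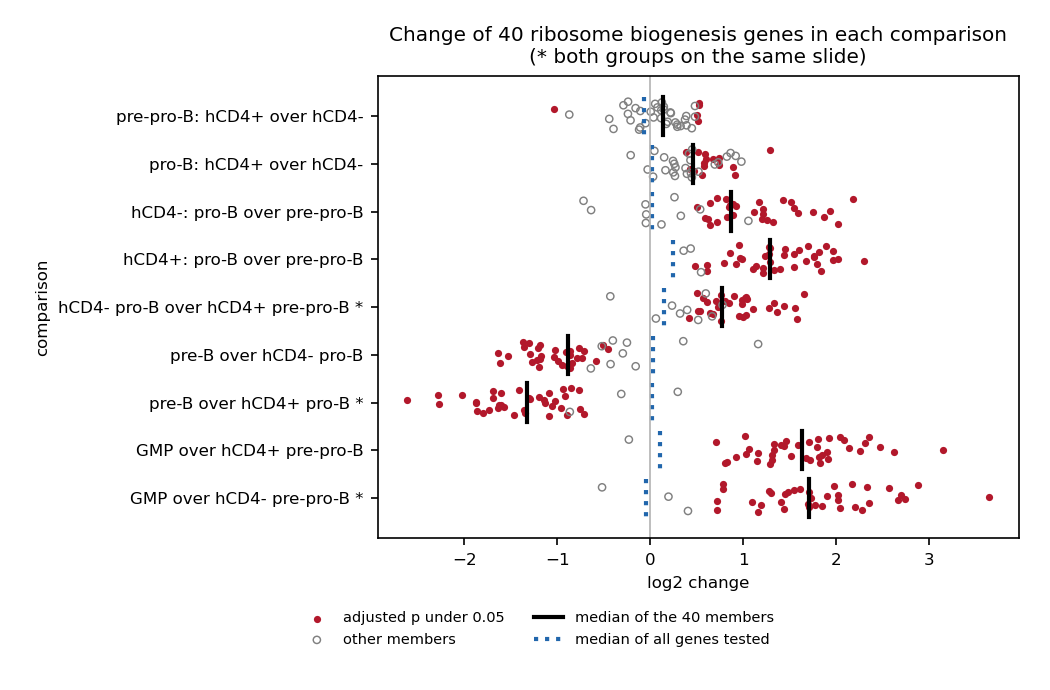
Each point is the log2 change of 1 of 40 genes in the comparison named on the vertical axis, filled where the adjusted p was under 0.05. Black bars give the median of the 40 and dotted bars that of all genes tested, and the medians of the 40 run from -1.33 to 1.70.

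Few members followed the hCD4 contrast in pre-pro-B cells. In pre-pro-B cells 4 members were higher in hCD4+ cells and 1 was lower (8.78% and 8.26% of all genes), at a median change of 0.14 against -0.063. The 4 were Nhp2 at 0.53 (SE 0.11, adjusted p = 0.0172), Gar1 at 0.52 (SE 0.14, adjusted p = 0.0342), Nop58 at 0.51 (SE 0.13, adjusted p = 0.0308) and Wdr12 at 0.50 (SE 0.12, adjusted p = 0.0234), and Rrp12 was lower by 1.04 (SE 0.29, adjusted p = 0.0428). These shares are near the background. Without hCD4- pre-pro-B replicate 1 the count of higher members was 12, and without replicate 2 it was 0. Under 4 other ways of scaling, no member was lower. Scaling by array medians gave 9 higher members, with 17.5% of all genes higher and 3.47% lower.

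In pro-B cells 15 of 40 were higher in hCD4+ cells and none was lower (11.6% and 8.86% of all genes), at a median of 0.46 against 0.024. Npm3 led with 1.29 (SE 0.27, adjusted p = 0.0138), then Fbl with 0.91 (SE 0.11, adjusted p = 0.00157), Rrp9 with 0.89 (SE 0.19, adjusted p = 0.0137) and Polr1b with 0.74 (SE 0.20, adjusted p = 0.0358). The other 11 were Bysl, Ddx21, Mrto4, Nat10, Nhp2, Nop2, Nop58, Polr1e, Ppan, Utp20 and Wdr12, from 0.39 for Nhp2 to 0.74 for Utp20. Other probes of Ddx21, Mrto4 and Wdr12 changed by 0.45, 0.60 and 0.56. The other probe of Polr1e changed by 0.11, against 0.55 on the probe used. Both hCD4+ arrays lay above both hCD4- arrays for 35 members (37% of all genes), all but Ebna1bp2, Gar1, Nip7, Pes1 and Tcof1. Granule markers were higher in hCD4+ pro-B cells and mature neutrophil markers in hCD4- pro-B cells (summed level 3.78 to 4.63 against -0.86 to -0.0044). Classical dendritic cell markers were higher in hCD4+ pro-B cells (2.08 to 2.31, 4 of 4 above background, against -2.43 to -1.31, 2 of 4). The part of these marker lists was not tested. The count was 3 without either hCD4- pro-B array, 4 without hCD4+ pro-B replicate 2 and 2 (Fbl and Npm3) when arrays were scaled by their medians. That scaling moved the median of all genes to -0.19 and that of the members to 0.24, with 7.74% of all genes higher and 17.1% lower.

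Tested as an interaction, the hCD4 contrast was larger in pro-B than in pre-pro-B cells for 8 members and smaller for none (13% and 10% of all genes). Rrp12 changed by -1.04 in pre-pro-B and 0.82 in pro-B cells, Nob1 by -0.87 and 0.73, and Rrp9 by -0.44 and 0.89. Nop2 changed by -0.11 and 0.67, and Fbl by 0.29 and 0.91. The other 3 were Bop1, Polr1e and Ddx21. On the probes used Polr1e changed by -0.11 and 0.55 and Ddx21 by 0.0054 and 0.60. Their other probes changed by -0.029 and 0.11 for Polr1e and by 0.10 and 0.45 for Ddx21. At a single stage, the change of Rrp12 passed in pre-pro-B cells, and those of Rrp9, Nop2, Fbl, Polr1e and Ddx21 in pro-B cells. No other single-stage change of these 8 passed. Scaled by array medians, Rrp12 alone was larger in pro-B while Ebna1bp2, Gar1 and Nop56 were smaller, and the median turned from 0.43 to -0.090 (6.17% of all genes larger and 28.1% smaller). Leaving out 1 array gave 1 to 9 members, the fewest without hCD4- pro-B replicate 2.

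These genes went with the cell cycle lists in some steps and not in others. In pre-pro-B cells all 14 S phase genes tested (such as the Mcm helicase subunits) were higher in hCD4+ cells, at a median of 1.78, and 11 of 12 G2/M genes were, at 2.37, while 4 of 40 ribosome biogenesis genes were. In pro-B cells no S phase gene and no G2/M gene was higher in hCD4+ cells, and 2 G2/M genes, Ccnb2 (-0.58, SE 0.11, adjusted p = 0.0102) and Cenpe (-0.72, SE 0.12, adjusted p = 0.00633), were lower, while 15 of 40 members were higher. In the interaction 14 of 14 S phase genes and 11 of 12 G2/M genes were smaller in pro-B cells. From pre-pro-B to pro-B all 14 S phase genes rose in hCD4- and in hCD4+ cells, and 11 and 7 of 12 G2/M genes did. Against hCD4+ pre-pro-B cells GMP had all 14 S phase genes higher, at a median of 1.13, and 1 of 12 G2/M genes, beside 39 of 40 members. From hCD4+ pro-B to pre-B cells 10 of 14 S phase genes fell and none rose, at a median of -0.62, and from hCD4- pro-B cells 6 fell and none rose, at -0.44. In pre-B cells the median G2/M level was 3.44 and 3.41 against 3.50 and 3.48 in hCD4+ pro-B cells, a step in which the members' median change was -1.33. Of the G2/M genes, Ccnb1 (-0.55, SE 0.17, adjusted p = 0.0281) and Cdk1 (-0.42, SE 0.12, adjusted p = 0.0204) fell in that step. Ccnb2 rose (0.43, SE 0.11, adjusted p = 0.0166). From hCD4- pro-B to pre-B cells Ccnb1 (-0.75, SE 0.17, adjusted p = 0.00837) and Cenpe (-0.39, SE 0.12, adjusted p = 0.0358) fell. Between 4 other ways of scaling, the S phase count in pre-pro-B stayed at 14 and the G2/M count at 11.

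**Figure D4:**
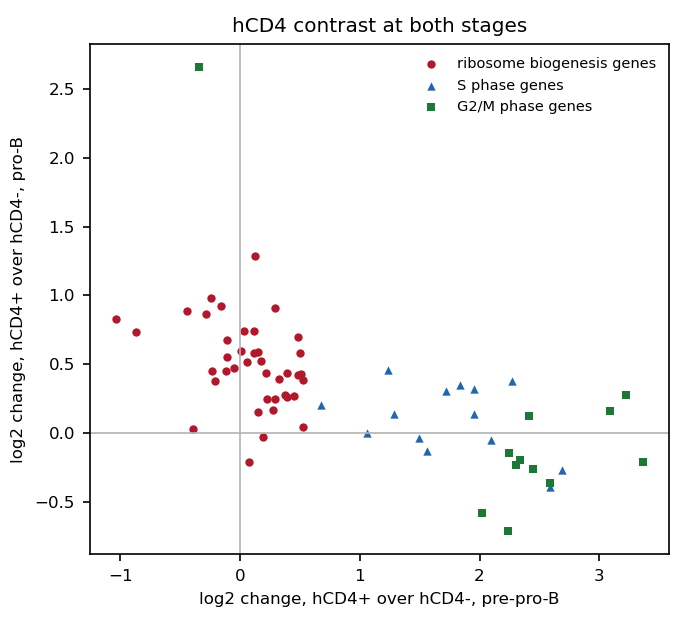
Each point is a gene, with its log2 change between hCD4+ and hCD4- cells in pre-pro-B cells on the horizontal axis and in pro-B cells on the vertical axis. All S phase and 11 of 12 G2/M genes lie to the right, with vertical changes from -0.72 (Cenpe) to 0.45 (Mcm2). The 40 ribosome biogenesis genes lie between -1.04 (Rrp12) and 0.53 (Nhp2) horizontally. Vertically they lie mostly above 0, at a median of 0.46. The G2/M gene at the upper left is Aurkb (2.66 in pro-B, SE 0.90), which did not pass the test.

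**Figure D5:**
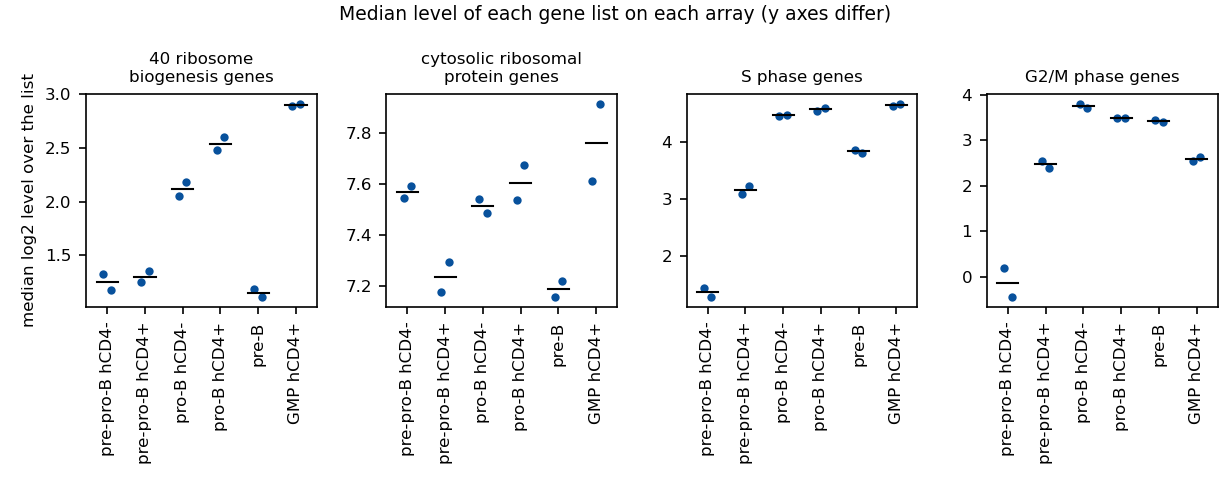
Points give the median log2 level of a gene list on each array and bars the mean of the 2 arrays of a group, with a vertical axis of its own in each panel. The members' median lies between 1.11 and 1.36 on all pre-pro-B and pre-B arrays, while the S phase median is 1.29 and 1.46 on the hCD4- pre-pro-B arrays, 3.09 and 3.23 on the hCD4+ pre-pro-B arrays and 3.80 and 3.85 on the pre-B arrays.

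Other genes of the pathway passed the test mostly in the direction of the members. Of 91 other ribosome biogenesis factors tested, 51 rose and 6 fell from hCD4- pre-pro-B to hCD4- pro-B (32.7% and 26.9% of all genes), at a median of 0.53. In hCD4+ cells 55 rose and 2 fell (33.1% and 21.1%), at a median of 0.62, and 30 rose with array-median scaling (18.9% of all genes). Into pre-B, 41 fell and 3 rose from hCD4- pro-B (21.4% and 19.7%), and 54 fell and 1 rose from hCD4+ pro-B (24% and 18.8%). GMP were higher for 64 and lower for 2 against hCD4+ pre-pro-B cells (31.3% and 22.8%). Urb2 rose by 2.14 (SE 0.21, adjusted p = 4.36e-05) into hCD4- pro-B cells and Brix1, a large subunit factor, by 1.55 (SE 0.19, adjusted p = 0.000162), while Noc3l fell by 1.93 (SE 0.22, adjusted p = 0.000124). Cd3eap, an RNA polymerase I subunit despite its name, was at 0.13 and 0.0090 on the hCD4+ pro-B arrays and -2.42 and -2.39 on the pre-B arrays, a fall of 2.48 (SE 0.12, adjusted p = 4.02e-06). Lyar, a nucleolar protein, was not well above background on any hCD4- pro-B array and was at -1.95 and -1.75 on the hCD4+ pro-B arrays, at least 7.84-fold higher (adjusted p = 9.98e-05). This bound sets the hCD4- pro-B arrays to the dimmest signal still above background.

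The 66 cytosolic ribosomal protein genes, which encode the parts these factors assemble, had no direction that held across scalings. GMP were higher than hCD4+ pre-pro-B cells for 44 and lower for none, and pro-B exceeded pre-pro-B cells, both hCD4+, for 34 and none, but over 5 ways of scaling the first count ran from 6 to 54 with 0 to 14 lower, and the median change of the second from -0.0027 to 0.40. The median change of the 40 members kept its sign under all 5 in all 9 comparisons between groups. Individual ribosomal protein genes went opposite ways in 1 comparison: into hCD4- pro-B cells Rps19 rose by 1.56 (SE 0.27, adjusted p = 0.00113), and Rpl31 fell by 1.16 (SE 0.14, adjusted p = 0.000177), as did its 4 other probes by 1.07 to 1.43.

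Myc, the growth regulator known to drive this gene class, was highest in GMP, then in hCD4+ and then in hCD4- pro-B cells, the order of the members' median in these groups. Its level was 3.06 and 2.85 on the GMP arrays, 1.86 and 2.28 on the hCD4+ pro-B arrays and 1.29 and 1.48 on the hCD4- pro-B arrays. It was -1.49 and -1.54 on the pre-B arrays, -3.23 and -2.65 on the hCD4+ pre-pro-B arrays and -5.04 and -3.82 on the hCD4- pre-pro-B arrays, of which 1 was well above background. Myc rose by 5.01 (SE 0.37, adjusted p = 1.68e-05) from pre-pro-B to pro-B in hCD4+ cells, and fell by 3.59 (SE 0.37, adjusted p = 0.000136) from hCD4+ pro-B to pre-B. It rose into hCD4- pro-B cells too (adjusted p = 3.51e-06), but with 1 of 2 hCD4- pre-pro-B arrays above background no size is given. In pro-B cells it changed by 0.68 (SE 0.37, adjusted p = 0.227) between hCD4 states. Pre-B arrays, above the pre-pro-B arrays for Myc, were not above them for the members' median. Of 10 Myc network genes tested, 3 rose and 4 fell into hCD4- pro-B cells, 1 rose and 5 fell into hCD4+ pro-B cells, and 2 were higher and 5 lower in GMP than in hCD4+ pre-pro-B cells. Mycl1, a relative of Myc, ran the other way, at 1.75 and 1.58 on the hCD4- and 1.72 and 1.54 on the hCD4+ pre-pro-B arrays, and was not well above background on any GMP or hCD4- pro-B array. It was at least 84.6-fold higher in hCD4- pre-pro-B than in hCD4- pro-B cells (adjusted p = 5.57e-06). The Mxd proteins compete with Myc for its partner Max. Mxd4 was at 0.084 and 0.18 on the GMP arrays, -0.20 and -0.33 on the hCD4+ pro-B arrays and 1.63 and 1.57 on the pre-B arrays, and rose by 1.86 (SE 0.13, adjusted p = 1.83e-05) from hCD4+ pro-B to pre-B, by 2.05 on its other probe. Mxd1 rose by 2.32 (SE 0.18, adjusted p = 3.69e-05) in that step, by 1.13 on its other probe. Mxd3 had another order, at -1.89 and -1.76 on the GMP arrays and -1.50 and -2.38 on the hCD4- pre-pro-B arrays. Its pro-B arrays read 1.16 and 0.89 (hCD4-) and 0.83 and 0.34 (hCD4+), and its pre-B arrays 0.88 and 0.85. These genes and the members were read on the same arrays, and no relation between them was tested.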

How the data were processed

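The intensities are the deposited processed signals of 12 one-colour Agilent arrays, background-corrected by Agilent Feature Extraction 10.7.3.1 per the file headers. Here log2 was taken and each array's 75th percentile subtracted. Outlier spots (2469 values) were left out and no spot was saturated. Spots of a probe were averaged, and a probe was kept if 1 group or more had it well above background on each of its arrays (18556 genes, brightest probe each). The authors' log2 values, as deposited, served as an alternative. Of the 40 members, 14 have several probes, and 18 other probes changed in the same sign as the probe used in 148 of 162 comparisons and in 113 of 113 where it was called. These counts leave out the interaction and the order of pre-B and pre-pro-B cells, which were not tested against each other.

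limma 3.58.1 (lmFit, eBayes) in R 4.3.3 held all 12 arrays in 6 groups, with 6 residual and 2.15 prior degrees of freedom. Tests were two-sided, adjusted over all genes by Benjamini-Hochberg, and called at an adjusted p under 0.05. SE is the model's and SD is over 2 arrays. The script was tested on simulated data. Data were handled with the data.table package (version 1.17.8), and figures drawn with matplotlib 3.10.9. The members, lists and tests were chosen with earlier results of these data known. Per-array values are given for the 2 widest and the narrowest ranges in each role, and statistics for up to 4 changes in each direction per comparison. Of the other lists, up to 3 genes per comparison and always Myc may be named. Cell cycle examples were chosen after their values were seen, as were the motifs. Gene names are the array's; 39 members matched RefSeq by accession with the same symbol.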

Additional observations from a re-analysis of the deposited data

Results flagged for a closer look

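The hCD4 contrast, hCD4+ minus hCD4- cells, was larger in pro-B than in pre-pro-B cells for 8 of the 40 genes by an interaction term in limma, on the log2 scale, while 13% of all genes were larger and 10% smaller. With array-median scaling 1 stayed larger, 3 were smaller and the median of the 40 turned from 0.43 to -0.090, and leaving out 1 array gave as few as 1, without hCD4- pro-B replicate 2. Rrp12 differed by 1.86 (SE 0.41, adjusted p = 0.0156), and Nob1 by 1.6 (SE 0.39, adjusted p = 0.0238). Rrp9 differed by 1.33 (SE 0.26, adjusted p = 0.011). For these 3 the mean was lower in hCD4+ than in hCD4- pre-pro-B cells and higher in hCD4+ than in hCD4- pro-B cells. Of those differences, only that of Rrp12 in pre-pro-B cells and that of Rrp9 in pro-B cells passed the test. Nop2 differed by 0.78 (SE 0.17, adjusted p = 0.015), Bop1 by 0.69 (SE 0.21, adjusted p = 0.0461) and Polr1e by 0.66 (SE 0.19, adjusted p = 0.0405). Fbl differed by 0.62 (SE 0.16, adjusted p = 0.029) and Ddx21 by 0.59 (SE 0.16, adjusted p = 0.0308). On the other probes of Polr1e and Ddx21 the changes at both stages lay closer together.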

How the results depend on the processing

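The counts of members changed from pre-pro-B to pro-B, from pro-B to pre-B and between GMP and pre-pro-B cells stayed within 1.5 times in the direction of the change under every setting tried, including a fit without the hCD4- pre-pro-B arrays (added after seeing the data), which gave 38, 33 and 38, and 39 for GMP against hCD4+ pre-pro-B. The cause of the moves given here was not tested. From pre-pro-B to pro-B in hCD4- cells 1 member was lower with the deposited table, with the mean of kept probes and with only the arrays compared, and 0 to 1 with 1 array left out. In pre-B against hCD4- pro-B 1 was higher with the deposited table and with the replicate block. In the pre-pro-B hCD4 contrast, higher members numbered 9 with array-median scaling, 2 with the deposited table, 1 with no filter on dim probes, 0 with array weights, 0 with only the arrays compared and 0 to 12 with 1 array left out. Lower members there numbered 0 with array-median scaling, quantile, normexp with quantile and cyclic loess normalization, no filter, array weights and only the arrays compared, 2 with probes above background on all arrays, and 0 to 1 with 1 array left out. In the pro-B hCD4 contrast, higher members numbered 2 with array-median scaling, 9 with no filter, 23 with array weights and 3 to 19 with 1 array left out. The interaction gave 4 with array-median scaling (1 larger and 3 smaller in pro-B cells), and, all larger, 4 with no filter, 5 with array weights, 5 with only the arrays compared and 1 to 9 with 1 array left out. Single genes were followed under other settings only for the largest called changes, up to 4 in each direction per comparison. Of these 1008 values, 925 kept their call, 83 lost it and 0 reversed. Smaller called changes of single genes were not followed. All losses fell in the hCD4 contrasts and their interaction, and none in the other comparisons. Rrp12 in pre-pro-B cells lost its call in 18 of 24 settings, and Polr1b in pro-B cells in 13 of 25. Fbl in pro-B cells lost it in 0 of 25.

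Replicate numbers are shared between groups, but deviations of same-numbered arrays correlated from -0.0068 to 0.255 over 15 pairs of groups, over 0.1 in 10 and under -0.1 in 0. As not every pair was over 0.1 and the labels tie no number to an animal, the numbers were not taken to pair the samples, and what same-numbered arrays share is not known. With the replicate block 16 members were higher in the pro-B hCD4 contrast, 4 in the pre-pro-B one, and 10 in the interaction. With 2 arrays per group, a change such as that of Tcof1 into hCD4+ pro-B cells, 0.55 (SE 0.22), did not pass, so changes of a few SE can go undetected.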
